A study of Mus musculus with 18 samples.

Results

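The measured genes were 10 mouse genes that bind, store, move or release metal ions: the metallothioneins Mt1, Mt2 and Mt3, the ferritin subunits Fth1 and Ftl1, and Cp, Hmox1, Slc40a1, Slc39a14 and Slc30a1. They were taken by symbol from 55291 annotated genes, and each had a row in all 18 libraries. The libraries came from a kainate model of temporal lobe epilepsy with hippocampal sclerosis, in wild-type C57BL/6J males. At 6 weeks of age, an adeno-associated virus (AAV-DJ) carrying EGFP fused to the ribosomal protein Rpl10a under the astrocyte promoter GfaABC1D was injected into right CA3 in every group, controls included. The KA group received 50 nL of 20 mM kainic acid, a glutamate receptor agonist, in the right dentate gyrus 2 weeks after the virus, and hippocampi were taken 14 days later. The AAV control group received the virus alone, with RNA taken 2 weeks after it, so these mice were collected sooner after the virus than the KA mice. The PBS group received phosphate-buffered saline after the virus, with timing not given in the sources used here. Right hippocampi of 3 to 4 mice were pooled into each homogenate, and every homogenate gave 2 libraries: ribosome-bound RNA pulled down with an antibody to GFP (IP) and total RNA of the same homogenate (input). With 3 homogenates a group, there were 9 IP and 9 input libraries. Tagging depends on the promoter and on the infected area. The tag marks infected hippocampal astrocytes as far as that promoter is restricted to them. IP RNA was enriched for astrocyte markers but also held markers of other cells, given below.

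Metallothioneins are small cysteine-rich proteins that buffer zinc and copper. Mt1 and Mt2 are induced by metal ions through the transcription factor MTF-1, which binds metal response elements (MREs) in their promoters, and by stress signals, while Mt3 is the form known from brain and does not respond to metal in the same way. Ferritin stores iron in shells built of heavy subunits (Fth1), which oxidise iron, and light subunits (Ftl1), which help form the mineral core. Heme oxygenase 1 (Hmox1) breaks haem down and frees its iron, ferroportin (Slc40a1) carries iron out of cells, and ceruloplasmin (Cp), a copper protein that astrocytes carry on their surface, oxidises the exported iron. Slc39a14 (ZIP14) brings zinc and iron into cells and Slc30a1 (ZnT1) exports zinc. Cells also set ferritin and ferroportin through iron responsive elements (IREs), short RNA hairpins that iron regulatory proteins bind when iron is scarce.

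The 3 metallothionein genes lie side by side on the plus strand of chromosome 8 (GRCm38), with Mt3 at chr8:94152607-94154146, Mt2 at chr8:94172664-94173568 and Mt1 at chr8:94179082-94180327, in 27721 bases from the start of Mt3 to the end of Mt1. Their promoters are shown because the neighbours differed in how far they moved between groups. Each sequence is the 250 bases before the RefSeq start in GRCm38.p6, plus strand, at chr8:94178839-94179088 for Mt1, chr8:94172368-94172617 for Mt2 and chr8:94152357-94152606 for Mt3. Capitals mark the 7-base MRE core TGCACNC or TGCGCNC on either strand:
Mt1: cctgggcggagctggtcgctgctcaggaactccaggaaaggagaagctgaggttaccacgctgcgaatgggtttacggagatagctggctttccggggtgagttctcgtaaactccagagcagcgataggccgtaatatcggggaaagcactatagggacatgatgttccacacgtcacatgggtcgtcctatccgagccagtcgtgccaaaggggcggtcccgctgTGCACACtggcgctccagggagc
Mt2: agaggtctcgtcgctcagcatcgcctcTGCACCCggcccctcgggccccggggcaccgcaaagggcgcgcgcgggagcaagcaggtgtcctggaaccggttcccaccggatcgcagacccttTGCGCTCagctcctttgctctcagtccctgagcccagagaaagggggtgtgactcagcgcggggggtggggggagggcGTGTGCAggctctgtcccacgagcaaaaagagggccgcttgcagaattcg
Mt3: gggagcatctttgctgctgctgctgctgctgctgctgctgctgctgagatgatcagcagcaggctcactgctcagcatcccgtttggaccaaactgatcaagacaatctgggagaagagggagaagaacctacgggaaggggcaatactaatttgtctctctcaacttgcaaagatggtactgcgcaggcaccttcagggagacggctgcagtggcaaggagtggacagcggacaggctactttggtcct
Over 300 bases, from 250 before the start to 50 from it, Mt1 held 3 cores and Mt2 held 4, and Mt3 held 1. The core nearest to the start on its upstream side began 23 bases before it in Mt1 and 50 bases before it in Mt2, and the Mt3 core lay in the transcribed part, at base 28. For Mt1 and Mt2 the RefSeq start is not the first base of the gene given above. Counts and positions of cores depend on the start used. Of 32851 mouse RefSeq promoter windows of the same length, 25.7% held at least 1 core, 1.97% at least 3 and 0.517% at least 4. Windows were found for 7 of the 10 genes: Slc30a1 held 2 cores, and Fth1, Ftl1 and Cp held none in these letters. The antioxidant response core TGACNNNGC, searched on both strands, was found once in Mt2, 79 bases before the start, once in Slc30a1, and in 12.4% of all windows. A match is a description of letters and not a shown binding site.

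The hairpins of the ferritins and ferroportin are shown because these genes, unlike the metallothioneins, share an RNA element. A C, 5 bases, CAGTG and 1 more base, flanked by 5 pairing bases on each side of the loop (G with T allowed), matched the annotated 5′ untranslated exons of 3 of the 10 genes, and of 31 of 21181 genes in all (0.146%). The 30 bases around each loop, in the direction of the transcript, are at chr19:9982732-9982761 (plus strand) for Fth1, chr7:45459778-45459807 (minus strand) for Ftl1 and chr1:45925464-45925493 (minus strand) for Slc40a1 in GRCm38, with CAGTG in capitals:
Fth1: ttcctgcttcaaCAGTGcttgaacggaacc
Ftl1: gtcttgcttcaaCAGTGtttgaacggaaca
Slc40a1: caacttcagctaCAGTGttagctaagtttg
The other genes lie at chr8:75093621-75100589 (Hmox1, plus strand), chr3:19957054-20009145 (Cp, plus), chr14:70303469-70351425 (Slc39a14, minus) and chr1:191906767-191913247 (Slc30a1, plus). Annotated genes on the opposite strand overlap Mt2 (Gm45774), Ftl1 (Gm10252), Cp (Hps3) and Slc30a1 (1700034H15Rik), and Gm22133 overlaps Ftl1 on its own strand. Whether counting used strand is not given in the sources used here. Reads in such an overlap may therefore have been counted for either gene or left out. Annotated ferritin pseudogenes held counts of at most 0.472% of those of Fth1 and at most 4.06% of those of Ftl1.

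The 18 libraries held 7991681 to 16032180 gene counts. KA #1 and #2 and AAV control #1 and #2 were sequenced in run 1, KA #3 and AAV control #3 in run 2, and all PBS libraries in run 3, so PBS and run cannot be told apart. AAV control #3 and KA #3 stood apart from #1 and #2 of their groups in several of the genes, so values within runs and with homogenate number as a block are given beside the results they touch. The IP libraries carried the astrocyte label in every group: summed FPKM (fragments mapped to a gene, scaled to its length and to the library's total) of 10 astrocyte markers was 5146 to 8296 in AAV control IP, 5649 to 9837 in PBS IP and 2581 to 2833 in KA IP, against 457 to 897 over all input libraries. All 10 were above 1 FPKM in every library. Markers of other cells differed between groups too. In IP, the neuron sum was 1411 to 2296 in KA against 352 to 444 in AAV control and 313 to 544 in PBS, and the oligodendrocyte sum was 1450 to 2833 against 277 to 1194 and 302 to 639. In input, the microglia sum was 1689 to 2646 in KA, 133 to 305 in AAV control and 180 to 207 in PBS. Red blood cell markers were in every IP library too. Their sum was 162 to 214 in KA, 166 to 282 in AAV control and 200 to 312 in PBS. How RNA of other cells came into IP was not tested. What part these markers had in the results was not tested. These are bulk libraries, in which fewer cells of a type and less RNA per cell cannot be told apart. P-values of group comparisons within IP or within input measure the spread between 3 pooled homogenates a group. Tests across IP and input without a block treat the 2 libraries of a homogenate as independent, although they share it. Each comparison was tested with edgeR's quasi-likelihood test over all genes above 1 FPKM in every compared library, and a gene passed at a Benjamini-Hochberg adjusted p under 0.05; errors of log2 fold changes are standard errors.

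FPKM divides by the length of the gene model, which was 1245 bases for Mt1, 588 for Mt2, 1065 for Mt3 and 3467 for Fth1. An order between genes depends on these lengths. By mean FPKM, Mt1 was the highest of the 10 in IP of every group, followed by Mt3. These 2 overlapped in KA and AAV control and not in PBS. Next came Mt2 and Fth1 in KA, and Fth1 and Mt2 in the controls, then Ftl1, Hmox1 and the 4 low genes. In input of both controls Fth1 was first, ahead of Mt1 (with overlap in AAV control), and in KA input Mt1 was first and overlapped Fth1. By counts, the KA input libraries held 63627 to 82531 for Fth1 and 21998 to 65731 for Mt1.

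Mt1 differed widely between the libraries of a group. Its FPKM was 4329, 4705 and 12384 in AAV control IP, 11971, 13793 and 8392 in PBS IP, and 6494, 6809 and 23276 in KA IP. The libraries of run 2, AAV control #3 and KA #3, were the highest of their groups, and the 3 groups overlapped. In input, Mt1 was at 532, 495 and 1911 FPKM in AAV control, 1519.5, 1369 and 1289 in PBS and 1999, 1853 and 5174 in KA. Every KA input library was above every PBS input library, and KA overlapped AAV control only through AAV control #3.

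For Mt1, the log2 fold change of KA over AAV control was 0.85 ± 0.69 in IP (edgeR, adjusted p = 0.435) and 1.61 ± 0.68 in input (adjusted p = 0.264), neither of which passed. Same-numbered homogenates of KA and AAV control were different pools of mice sequenced in the same run. They deviated together across genes, and whether their number matters beyond the run was not tested. With homogenate number as a block, Mt1 was at 0.73 ± 0.22 in IP (adjusted p = 0.0409) and 1.75 in input (adjusted p = 0.00096), both of which passed. The IP value without the block moved with single libraries: it was -0.15 in the fit without KA IP #3 (adjusted p = 0.878) and 1.61 without AAV control IP #3 (adjusted p = 0.0872), and 3 of 17 alternatives for Mt1 in IP passed. Within runs, the KA to AAV control fold of FPKM in IP was 1.47 in run 1 and 1.88 in run 2, and in input 3.75 and 2.71. Against PBS, Mt1 was at 0.14 ± 0.65 in IP (adjusted p = 0.885) and rose by 1.13 ± 0.38 in input (adjusted p = 0.0478), a call that 7 of 15 alternative analyses kept.

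Mt2 lies between its relatives on the chromosome and was the metallothionein with the largest fold changes. In IP its FPKM was 224, 254 and 337 in AAV control, 266, 299 and 142 in PBS and 497, 476 and 1279 in KA. All 3 KA libraries were above all 6 control libraries. In input, Mt2 was at 15.8, 23.7 and 42.2 FPKM in AAV control, 27.1, 19.0 and 21.2 in PBS and 98.0, 89.1 and 176 in KA, again with no overlap.

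The Mt2 mean was 2.76 times that of AAV control in IP and 4.44 times that of AAV control in input. On the log2 scale, KA over AAV control was 1.56 ± 0.47 in IP, just short of the threshold (edgeR, adjusted p = 0.0520), and 1.38 ± 0.22 with the homogenate block (adjusted p = 0.00463); 9 of 17 alternatives passed it. In input Mt2 rose by 2.13 ± 0.45 (adjusted p = 0.0377), a call that 12 of 17 alternatives kept and that was lost without KA input #1 or #2. Against PBS it rose by 1.69 ± 0.47 in IP (adjusted p = 0.0168) and by 2.44 ± 0.29 in input (adjusted p = 0.000231). The fold was above 1 within each run, at 2.04 and 3.79 in IP and 4.74 and 4.16 in input.

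Mt3, the third gene of the cluster, did not pass between KA and either control group in the edgeR test described above, without a block. Some alternatives differed, as given below. Its FPKM in IP was 1941, 2313 and 4507 in AAV control, 5111, 6745 and 3458 in PBS and 1686, 1894 and 6608 in KA. The KA libraries lay on both sides of the controls. The log2 fold change was 0.31 ± 0.64 over AAV control (adjusted p = 0.779) and -0.56 ± 0.60 over PBS (adjusted p = 0.496). The fit without KA IP #3 moved it to -0.75 over AAV control, which did not pass, and to -1.60 over PBS, which passed as lower in KA (adjusted p = 0.036) as the only such case among 15 alternatives. In input, Mt3 was at 345, 342 and 765 FPKM in AAV control, 897, 701 and 604 in PBS and 552, 613 and 1361 in KA. KA over AAV control was 0.80 ± 0.49 (adjusted p = 0.462), which passed with the homogenate block at 0.79 (adjusted p = 0.00799) and in 5 of 17 alternatives in all, and KA over PBS was 0.20 ± 0.34 (adjusted p = 0.697).

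**Figure D1:**
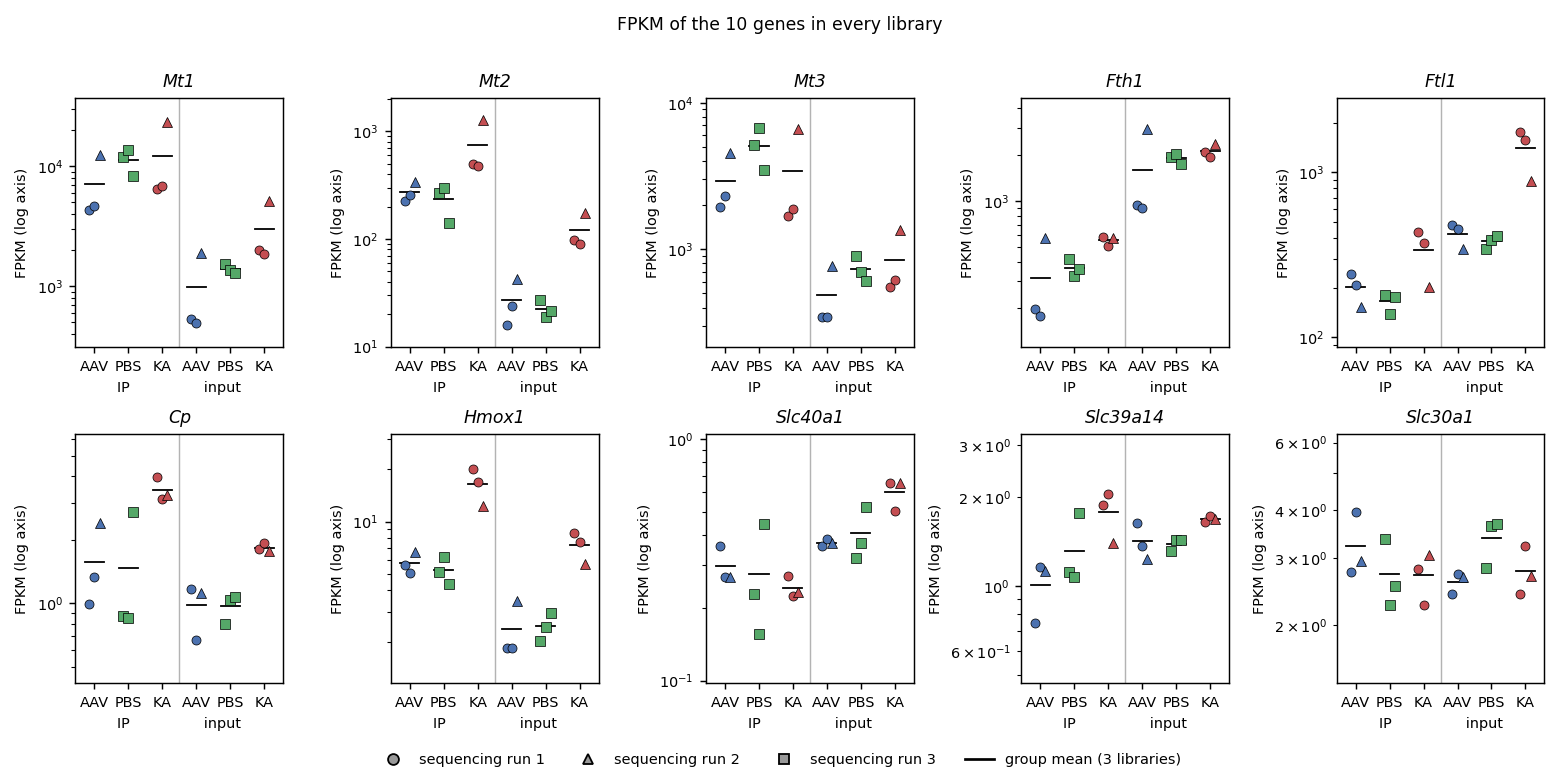
FPKM of the 10 genes on a log axis, 1 point a library and 1 panel a gene, by group and kind of library, with marker shape for the sequencing run and a bar at the mean of 3 libraries. Mt2 and Hmox1 in KA lie above both control groups in IP and in input, while Mt1, Mt3 and Fth1 overlap in IP with AAV control and their AAV control #3 library stands above #1 and #2.

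Ratios between the metallothioneins of the same library do not depend on how libraries are scaled. The Mt1 to Mt3 ratio of FPKM in IP was 2.23, 2.03 and 2.75 in AAV control, 2.34, 2.04 and 2.43 in PBS and 3.85, 3.60 and 3.52 in KA. KA lay above both controls without overlap, with means of 3.66 ± 0.172 (SD, n = 3) in KA, 2.34 ± 0.369 in AAV control and 2.27 ± 0.201 in PBS. In input the means were 3.48 ± 0.407 in KA, 1.83 ± 0.581 in AAV control and 1.93 ± 0.222 in PBS, also without overlap of KA and controls.

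The Mt2 to Mt3 ratio differed more. In IP it was 0.115, 0.110 and 0.0748 in AAV control, 0.0520, 0.0443 and 0.0410 in PBS and 0.295, 0.251 and 0.194 in KA. In input the means were 0.0567 ± 0.0118 (SD, n = 3) in AAV control, 0.0308 ± 0.00410 in PBS and 0.151 ± 0.0246 in KA. KA was above both controls in both kinds of library, and PBS was below AAV control in both. Among 24 such comparisons of 4 ratios, each of these gave an exact two-sided permutation p of 0.1, the smallest that 3 against 3 libraries allow, and 0.150 after adjustment. The Mt2 to Mt1 ratio in IP was 0.0671 ± 0.0111 in KA, above AAV control (0.0443 ± 0.0148) and PBS (0.0203 ± 0.00293) without overlap. In input it was 0.0437 ± 0.00844 in KA and overlapped AAV control (0.0332 ± 0.0133, exact permutation p = 0.2, adjusted 0.282). It lay above PBS input (0.0160 ± 0.00202). A ratio shows that the genes changed unequally and not which of them changed.

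**Figure D2:**
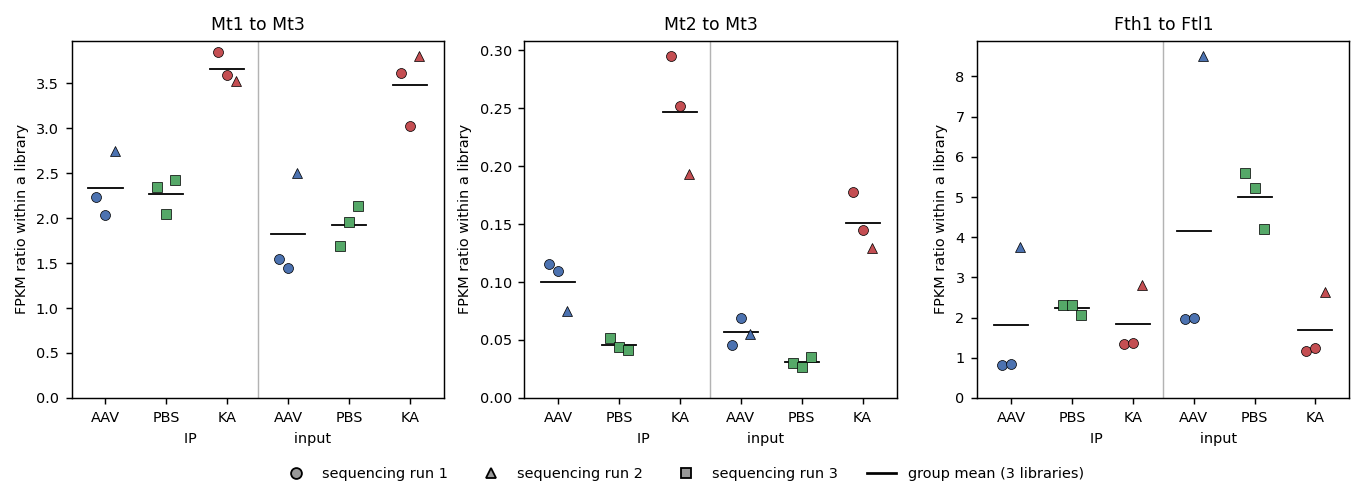
Ratios of FPKM between 2 genes of the same library (linear axes from 0), 1 point a library, for Mt1 to Mt3, Mt2 to Mt3 and Fth1 to Ftl1, with lines at the means of 3 libraries and shapes for the sequencing run. KA lies above both controls in the Mt1 to Mt3 and Mt2 to Mt3 ratios in IP and input. Fth1 to Ftl1 overlaps in IP and follows run 2 in AAV control and KA.

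The ferritin light subunit was higher after KA, most of all in input. Ftl1 in input was at 479.5, 453 and 344 FPKM in AAV control, 346, 388 and 413 in PBS and 1769, 1564 and 884 in KA. The lowest KA library, #3, was above all 6 control libraries. Ftl1 rose by 1.72 ± 0.25 on the log2 scale over AAV control (edgeR, adjusted p = 0.00942) and by 1.85 ± 0.20 over PBS (adjusted p = 0.000116). The microglia marker sum in these input libraries moved the same way, at 1689 to 2646 in KA against at most 305 in the controls; its part was not tested.

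In IP, Ftl1 was at 243, 208 and 152 FPKM in AAV control, 182, 139 and 175 in PBS and 434, 375 and 203 in KA. KA #3 lay within the AAV control range and above all PBS libraries. The log2 fold change over AAV control was 0.79 ± 0.27 (adjusted p = 0.0747), and 0.75 ± 0.15 with the homogenate block (adjusted p = 0.00976). Over PBS, Ftl1 rose by 1.01 ± 0.26 (adjusted p = 0.0112). The microglia marker sum in IP was 35.5 to 69.1 in KA, 16.7 to 28.7 in AAV control and 21.6 to 33.7 in PBS, with none of the 10 markers at 0 throughout a group; its part was not tested.

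The heavy subunit separated less from the controls. Fth1 in IP was at 198, 178 and 571 FPKM in AAV control, 419, 323 and 361 in PBS and 586, 509 and 571 in KA. KA lay above PBS and above AAV control #1 and #2, and AAV control #3 was as high as KA #3. The log2 fold change was 0.82 ± 0.49 over AAV control (adjusted p = 0.280), 1.09 ± 0.33 with the homogenate block (adjusted p = 0.0438) and 0.60 ± 0.28 over PBS (adjusted p = 0.117). The within-run fold was 2.91 in run 1, and in run 2 KA and AAV control were both at 571 FPKM. The oligodendrocyte marker sum in IP was 1450 to 2833 in KA, 277 to 1194 in AAV control and 302 to 639 in PBS. Mbp, a marker in that sum, was at 80.8, 98.3 and 449 FPKM in AAV control IP. In input the sum was 821 to 1057 in KA, 847 to 1007 in AAV control and 612 to 783 in PBS. The part of these cells was not tested.

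In input, Fth1 was at 946, 898 and 2924 FPKM in AAV control, 1939, 2022 and 1736 in PBS and 2073, 1925 and 2333 in KA, with the groups overlapping. It was at 0.37 ± 0.51 over AAV control (adjusted p = 0.771) and 0.14 ± 0.21 over PBS (adjusted p = 0.650), and its fold was 2.17 in run 1 and 0.798 in run 2. The Fth1 to Ftl1 ratio in input was 1.68 ± 0.830 (SD, n = 3) in KA against 5.01 ± 0.725 in PBS, without overlap (exact permutation p = 0.1, adjusted 0.150), and overlapped with AAV control.

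Hmox1, the enzyme that frees iron from haem, was higher in KA in both kinds of library. Its FPKM in IP was 5.60, 5.02 and 6.64 in AAV control, 5.13, 6.20 and 4.35 in PBS and 20.1, 16.9 and 12.3 in KA. Every KA library was above every control library, with KA #3 the lowest of the 3. Hmox1 rose by 1.54 ± 0.23 on the log2 scale over AAV control (edgeR, adjusted p = 0.0038) and by 1.62 ± 0.24 over PBS (adjusted p = 0.000763). All 17 and all 15 alternatives to these comparisons passed too, with log2 fold changes of 1.42 to 1.86 over AAV control.

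In input, Hmox1 was at 1.86, 1.85 and 3.50 FPKM in AAV control, 2.05, 2.44 and 2.98 in PBS and 8.63, 7.61 and 5.66 in KA. The groups did not overlap, and it rose by 1.55 ± 0.32 over AAV control (adjusted p = 0.0342) and by 1.54 ± 0.19 over PBS (adjusted p = 0.000308). Over AAV control 12 of 17 alternatives passed in input: without KA input #1, #2 or #3 or AAV control input #1 or #2 the value was 1.36 to 1.65 with adjusted p of 0.0673 to 0.176. All 15 alternatives passed over PBS. The fold within runs was 3.48 and 1.86 in IP and 4.37 and 1.62 in input. The microglia marker sum was higher in KA too, at 35.5 to 69.1 FPKM in IP against at most 33.7 in the controls and 1689 to 2646 in input against at most 305. The sum of 10 macrophage and monocyte markers was 0.299 to 0.546 in KA IP, with 3 of them at 0 in all 3 libraries, against 0.587 to 1.40 in the control IP libraries, and 7.01 to 9.30 in KA input against 2.99 to 4.93. What part these cells had in the Hmox1 values was not tested.

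The remaining 4 genes were at low levels, under 5 FPKM. Ceruloplasmin fell short of 1 FPKM in some control libraries and was therefore outside the tested genes in the comparisons of KA with controls. Cp in IP was at 0.992, 1.33 and 2.41 FPKM in AAV control, 0.874, 0.851 and 2.71 in PBS and 3.96, 3.12 and 3.26 in KA. Each KA library was above each control library, and the highest control of either group was #3. Without the FPKM filter, the log2 fold change of Cp was 1.24 over AAV control and 1.54 over PBS, and both passed. In the fit without AAV control IP #1, the value over AAV control was 0.86 and did not pass (adjusted p = 0.141).

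In input, Cp was at 1.16, 0.668 and 1.12 FPKM in AAV control, 0.801, 1.04 and 1.07 in PBS and 1.80, 1.93 and 1.77 in KA, again above all controls. The log2 fold change without the filter was 0.85 over AAV control (adjusted p = 0.0077) and 0.89 over PBS, and both passed, but over AAV control Cp did not pass with edgeR's own count filter (0.87, adjusted p = 0.0659). Choroid plexus, which also makes ceruloplasmin, differed between these input libraries: the sum of its 10 markers was 2498 to 4502 FPKM in KA, 19.5 to 2999 in AAV control and 21.8 to 297 in PBS. In IP that sum was 26.3 to 43.8 in KA and 12.7 to 68.7 in AAV control, which overlap, and 4.34 to 18.7 in PBS; its part in the Cp values was not tested.

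The zinc and iron importer Slc39a14 was at 0.746, 1.16 and 1.12 FPKM in AAV control IP, 1.11, 1.07 and 1.76 in PBS IP and 1.88, 2.05 and 1.40 in KA IP. KA was above AAV control without overlap and overlapped PBS through PBS #3. AAV control #1 kept it out of the comparison with AAV control, where the log2 fold change was 0.94 without the filter (adjusted p = 0.0051), 0.91 with edgeR's count filter (adjusted p = 0.0283) and 0.64 without AAV control IP #1 (adjusted p = 0.111). It was at 0.45 ± 0.21 over PBS (adjusted p = 0.112). In input, it was at 1.64 to 1.72 FPKM in KA, 1.24 to 1.64 in AAV control and 1.31 to 1.44 in PBS, and the difference of 0.27 on the log2 scale from each control did not pass (adjusted p = 0.424 and 0.145).

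Slc30a1, the zinc exporter whose promoter is an MTF-1 target like those of Mt1 and Mt2, was at 2.76, 3.95 and 2.95 FPKM in AAV control IP, 3.36, 2.25 and 2.52 in PBS IP and 2.81, 2.25 and 3.04 in KA IP. The groups overlapped. It was at -0.18 ± 0.23 over AAV control (adjusted p = 0.620) and 0.01 over PBS (adjusted p = 0.989) in IP, and at 0.09 ± 0.18 and -0.29 ± 0.15 in input (adjusted p = 0.852 and 0.176).

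Ferroportin had the lowest FPKM of the genes. Slc40a1 was at 0.359, 0.267 and 0.269 FPKM in AAV control IP, 0.229, 0.156 and 0.445 in PBS IP and 0.269, 0.224 and 0.233 in KA IP, on 16 to 60 counts a library over all groups. In input it was at 0.362, 0.384 and 0.371 FPKM in AAV control, 0.321, 0.372 and 0.524 in PBS and 0.654, 0.501 and 0.654 in KA. KA input lay above AAV control input and overlapped PBS input, and Slc40a1 was under 1 FPKM throughout, so it was outside the tested genes. Without the FPKM filter, KA over AAV control was -0.16 in IP (adjusted p = 0.855) and 0.66 in input (adjusted p = 0.329), and with edgeR's count filter -0.18 and 0.68 (adjusted p = 0.737 and 0.170), none of which passed. The IP level was below the input level in KA (-1.01 on the log2 scale without the filter, adjusted p = 0.0126).

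Read against all genes, the members counted as follows. In IP, 7 of the 10 were tested in KA against AAV control and 1 passed (Hmox1), where 20.1% of 9729 genes passed. The median log2 fold change of the 7 was 0.82, beside -0.02 for all genes tested. With the homogenate block 5 passed (Mt1, Mt2, Fth1, Ftl1 and Hmox1) where 34.5% of all genes did, and from run 1 alone the count was also 5. Leaving out single libraries gave 1 to 3, with 3 without AAV control IP #3 and 2 without KA IP #3. Against PBS, 3 of 8 passed in IP (Mt2, Ftl1 and Hmox1), where 37.0% of 9847 genes did. In input, 3 of 8 passed against AAV control (Mt2, Ftl1 and Hmox1), where 4.49% of 10809 genes did, and 5 with the block, which adds Mt1 and Mt3, where 10.2% did. Without any single library that count ranged from 0 to 6: it was 0 without KA input #1 or #2, 1 without KA input #3 or AAV control input #1 or #2, and 6 without AAV control input #3. Against PBS, 4 of 8 passed in input, where 27.7% of 10849 genes did. In these fits on all compared libraries, the members that passed were higher in KA.

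The 2 comparisons with KA in each kind of library share the KA libraries, so they are not separate evidence. Counted by values alone, 2 of the 7 tested genes in IP were higher in every KA than in every AAV control library, against 16.8% of all genes tested, and 4 of 8 were higher than in every PBS library, against 22.7%. In input, 4 of 8 tested genes lay wholly above AAV control, against 12.2%, and 5 of 8 wholly above PBS, against 18.4%.

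**Figure D3:**
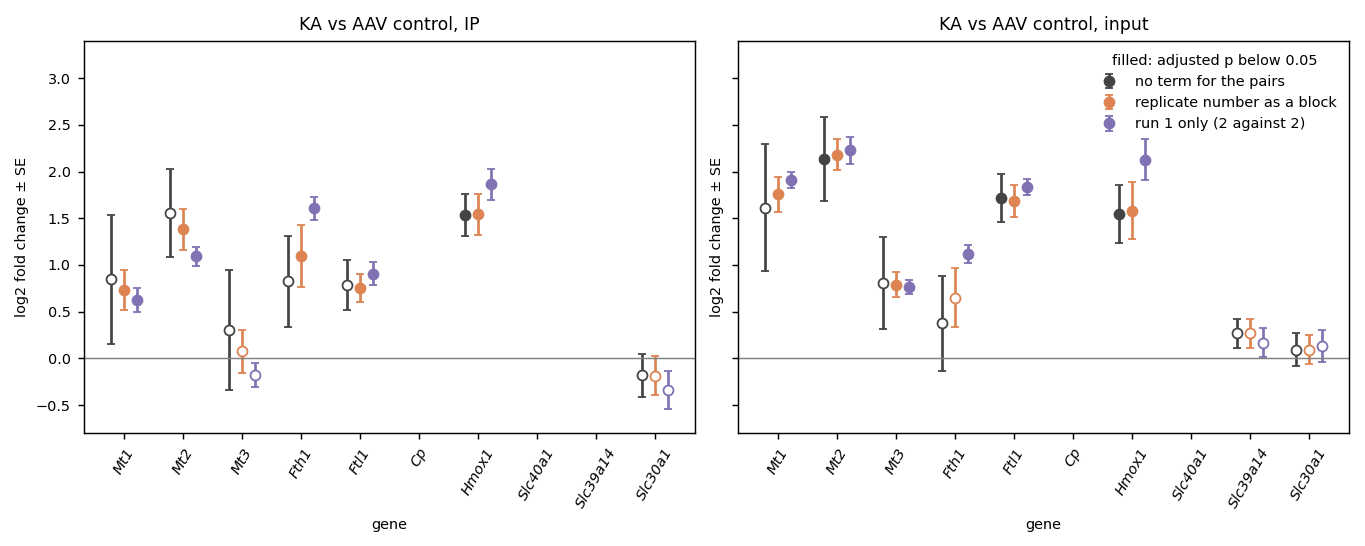
Log2 fold change of KA over AAV control with its standard error for the tested genes in IP and input, from the fit without and with homogenate number as a block and from run 1 alone; filled points passed and genes with no point were not tested. The error bars of Mt1, Mt2 and Mt3 are shorter with the block than without it, and Fth1 is highest from run 1 alone.

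Between PBS and AAV control no member passed. With edgeR, 0 of the 7 tested genes passed in IP and 0 of 8 in input, where 0% of 10667 and 0% of 10924 genes passed. At an unadjusted p under 0.05, 0 members and 10.8% of all genes passed in IP, and 1 member (Slc30a1) and 8.25% of all genes in input. Without AAV control IP #3, 0 members and 1122 genes passed in IP. DESeq2 called 16 genes in IP and 30 in input, with 0 members among them, and limma-voom called 0 in both. The largest member value in IP was Mt3 at 0.86 ± 0.51 (adjusted p = 0.546) and in input Mt3 at 0.62 ± 0.38 (adjusted p = 0.654). Without AAV control input #3, 4 members passed in input (Mt1, Mt3, Fth1 and Slc30a1), along with 4076 genes.

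RNA pulled down in IP differed from total RNA in opposite directions for the metallothioneins and the ferritins. In AAV control, the FPKM ratio of IP to input in the 3 homogenates was 8.14, 9.51 and 6.48 for Mt1, 14.2, 10.7 and 7.99 for Mt2 and 5.63, 6.76 and 5.89 for Mt3. For Ftl1 it was 0.507, 0.460 and 0.442, and for Fth1 the mean was 0.201 ± 0.0072 (SD, n = 3). All metallothionein ratios were thus far above 1 and all ferritin ratios below it, beside a ratio of 11.1 ± 0.345 for the sum of the 10 astrocyte markers and 0.110 ± 0.0156 for microglia markers. Hmox1 had a mean ratio of 2.54 ± 0.575, above 1 like the metallothioneins. The transporters lay nearer to 1, at 1.23 for Slc30a1, 0.737 for Slc39a14 and 0.805 for Slc40a1, and Cp was at 1.66 ± 0.708.

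In AAV control, 4 members were higher in IP (Mt1 3.02 ± 0.76, Mt2 3.45 ± 0.44, Mt3 2.75 ± 0.54 and Hmox1 1.38 ± 0.35 on the log2 scale, with adjusted p at most 0.0172), where 19.4% of 9961 genes were. Another 2 were lower, Fth1 by -2.17 ± 0.71 (adjusted p = 0.0458) and Ftl1 by -0.93 ± 0.20 (adjusted p = 0.00854), where 20.3% were. With the homogenate block, where 61.3% of genes passed in either direction, Slc30a1 was higher in IP as well (0.44, adjusted p = 0.0264). Leaving out AAV control input #1 brought the 6 calls down to 3. The same 6 genes passed in PBS, 4 of them higher where 28.6% of 10401 genes were and 2 lower where 27.7% were.

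In KA, these 6 passed in the same directions and Cp was higher in IP too, by 1.13 ± 0.13 (adjusted p = 0.000503); 19.1% of 10098 genes were higher and 15.3% lower. The metallothionein ratios were smaller than in the controls, at 3.25, 3.67 and 4.50 for Mt1, 5.07, 5.35 and 7.28 for Mt2 and 3.05, 3.09 and 4.86 for Mt3. For Mt1 and Mt3 the KA ratios lay below those of all 6 control homogenates, and for Mt2 the highest KA ratio was above the lowest PBS ratio of 6.68. Ftl1 had 0.245, 0.240 and 0.229 in KA, below all controls, and Fth1 had a mean of 0.264 ± 0.0188, above the means of 0.201 in AAV control and 0.195 in PBS. The astrocyte marker ratio was also lower in KA, at 3.06 ± 0.251 against 9.95 ± 2.37 in PBS and 11.1 in AAV control, and the microglia marker ratio was 0.0239 ± 0.00263. The oligodendrocyte marker ratio was higher in KA, at 2.23 ± 0.458 against 0.657 ± 0.344 in PBS and 0.643 ± 0.474 in AAV control. So was the neuron marker ratio, at 0.436 ± 0.169 against 0.0862 ± 0.0207 and 0.0691 ± 0.00386. Mean ratios of the remaining marker lists were lower in KA. The part of these cells in the member ratios was not tested.

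**Figure D4:**
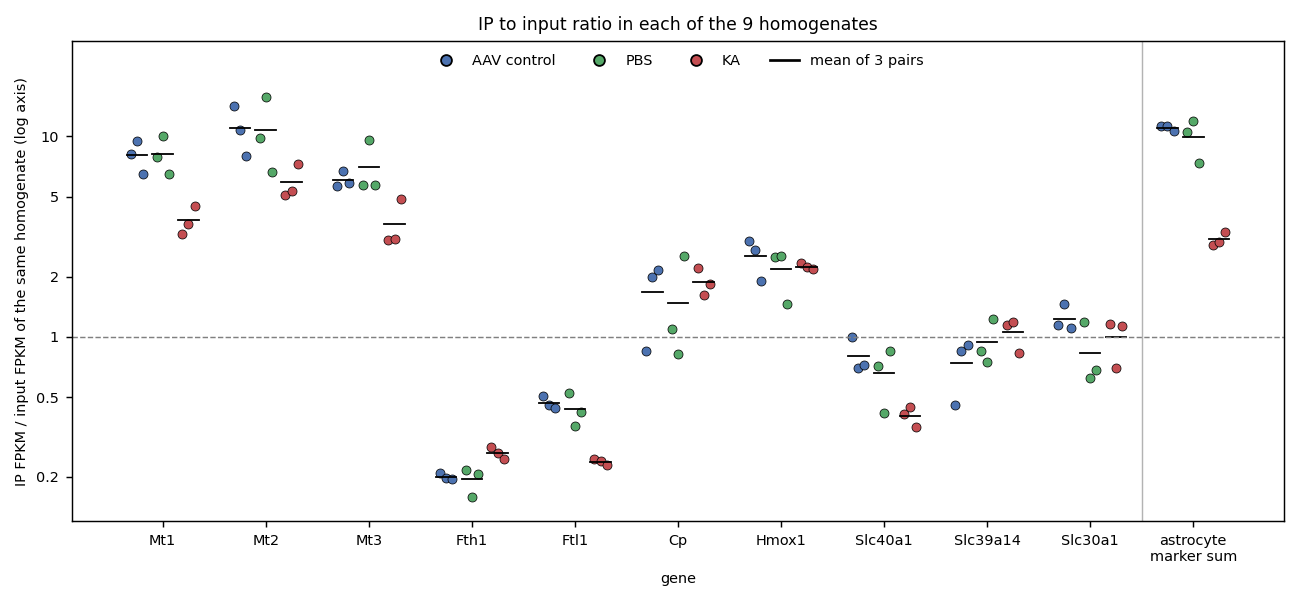
Ratio of IP to input FPKM of the same homogenate on a log axis, 1 point a homogenate, by gene and group, with bars at the mean of 3 pairs, a dashed line at 1 and the summed astrocyte markers at the right. Metallothioneins and Hmox1 lie above 1 and the ferritins below it in all groups, and Mt1, Mt3 and Ftl1 ratios are lower in KA than in each control homogenate.

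The effect of KA in IP was set against its effect in input as the difference of the 2 log2 fold changes, IP minus input. With AAV control as baseline, 0 of 7 tested members passed with edgeR, where 13.2% of 9180 genes did; DESeq2 and limma-voom also called 0 members, and 1, Ftl1, passed at an unadjusted p under 0.05. Ftl1 was at -0.91 ± 0.38 (adjusted p = 0.143) and Mt1 at -0.76 ± 1.08 (adjusted p = 0.728). IP and input are libraries of the same homogenate, and with homogenate as a block 4 passed, where 35.8% of genes did. Those were Mt1 at -1.01 ± 0.29 (adjusted p = 0.0187), Mt2 at -0.75 ± 0.21 (adjusted p = 0.0173), Mt3 at -0.70 ± 0.25 (adjusted p = 0.0469) and Ftl1 at -0.91 ± 0.15 (adjusted p = 0.000877). The KA effect on these 4 genes was thus smaller in IP than in input under the block. Hmox1 was at 0.00 (adjusted p = 1 without the block) and Fth1 at 0.46 with the block (adjusted p = 0.131).

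With PBS as baseline, 0 of 8 passed without the block, where 25.5% of 9305 genes did; DESeq2 and limma-voom called 0 members, and Ftl1 alone passed at an unadjusted p under 0.05. With the block, Ftl1 passed at -0.85 ± 0.20 (adjusted p = 0.0053), where 37.4% of genes did, and Mt1 (-1.08), Mt2 (-0.78) and Mt3 (-0.92) stayed short of the threshold, with adjusted p from 0.0552 to 0.0667. In the test without the block, leaving out KA IP #3 let Mt1, Mt2 and Mt3 pass, and leaving out KA input #3 let Ftl1 pass. For the effect of PBS over AAV control, 0 of 7 members and 0% of 9597 genes passed with edgeR, 1 member (Slc30a1) and 4.16% of genes passed at an unadjusted p under 0.05, and DESeq2 called 6 genes, with 0 members among them.

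The other genes of the same pathways, in 4 lists, moved in both directions. In KA over AAV control in IP, 2 of 15 tested genes of iron uptake, storage and release were higher and 1 lower, 1 of 16 haem genes was higher, 2 of 14 zinc transporters were higher and 2 lower, and 2 of 11 copper genes were higher and 1 lower, where 20.1% of all genes tested passed. The iron list's 3 of 15 was thus near that share and the haem list's 1 of 16 below it. With the homogenate block the iron list had 3 higher and 5 lower and the haem list 2 and 1, where 34.5% of all genes passed. The list medians were -0.08, -0.15, 0.05 and 0.16 on the log2 scale, beside -0.02 for all genes tested.

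Tfrc, the transferrin receptor that brings iron into cells, was at 12.6, 14.7 and 7.81 FPKM in AAV control IP and at 5.17, 5.85 and 4.91 in KA IP. It fell by 1.07 ± 0.21 on the log2 scale (edgeR, adjusted p = 0.0119), and by 0.90 ± 0.16 against PBS (adjusted p = 0.00186). Hfe, which binds that receptor, rose from 2.69, 2.05 and 3.47 FPKM to 7.29, 5.05 and 6.33 (1.22 ± 0.28, adjusted p = 0.0204), and Pcbp1, an iron chaperone that loads ferritin, rose by 0.65 ± 0.18 (adjusted p = 0.0375). Both also rose against PBS, by 0.94 ± 0.20 and 0.84 ± 0.18.

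Transferrin itself (Trf), which oligodendrocytes make in brain, was at 28.3, 19.7 and 62.7 FPKM in PBS IP and at 579, 364 and 327 in KA IP, and rose by 3.56 ± 0.41 against PBS (adjusted p = 0.000182). AAV control IP was at 11.8, 17.5 and 206, with #3 apart, and the difference of KA from it did not pass (2.37 ± 1.04, adjusted p = 0.150). The oligodendrocyte marker sum in IP moved with it, at 302 to 639 in PBS, 1450 to 2833 in KA and up to 1194 in AAV control; its part was not tested.

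Among zinc transporters, Slc39a12, a zinc importer, fell by 1.21 ± 0.27 over AAV control in IP (adjusted p = 0.0197), from 57.3, 51.0 and 31.5 FPKM to 24.2, 22.6 and 11.7. PBS IP was at 30.7, 27.9 and 24.2 FPKM and overlapped KA IP, and Slc39a12 did not pass over PBS in IP. In input it was at 7.06, 5.62 and 3.66 FPKM in AAV control and 7.34, 6.16 and 5.59 in KA. The astrocyte marker sum in IP was lower in KA too, at 2581 to 2833 against 5146 to 8296 in AAV control, and its part was not tested. Slc30a5, which loads the secretory pathway, fell by 0.76 ± 0.18, and Slc39a6, another importer, rose by 1.11 ± 0.20. Slc30a3, the transporter of synaptic vesicles in neurons, rose by 1.89 ± 0.38 (adjusted p = 0.0133), from 2.78, 3.32 and 6.33 FPKM to 13.4, 13.3 and 18.3. The copper-binding proteins App and Prnp rose by 1.62 ± 0.26 and 1.16 ± 0.21. Both are abundant in neurons, whose marker sum in IP was 1411 to 2296 in KA against at most 444 in AAV control. The 2 genes differed between IP and input. Mean FPKM of App was 31.2 in KA IP and 46.6 in KA input, and 10.3 and 52.6 in AAV control. For Prnp it was 902 and 412 in KA, and 419 and 398 in AAV control. The part of neurons was not tested.

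Cpox, an enzyme of haem synthesis, rose by 0.76 ± 0.22 over AAV control (adjusted p = 0.0490) and by 0.92 ± 0.23 over PBS, and Cox11, which inserts copper into cytochrome c oxidase, fell by 0.71 ± 0.21 and by 0.90 ± 0.26. Against PBS, where 37.0% of all genes tested passed, 3 of 15 genes of the iron list rose and 5 fell, among them the mitochondrial iron importer Slc25a28 (-0.95 ± 0.20) and Tfrc. In the haem list 1 of 16 rose and 3 fell: Ppox, another enzyme of the synthesis, by 1.19 ± 0.23, Flvcr1, known as a haem exporter, by 1.33 ± 0.36, and Slc46a1, which carries folate and haem, by 0.85 ± 0.19. The zinc list had 2 of 14 higher (Slc39a6 and Slc30a3) and 2 lower (Slc30a6 and Slc30a5), and the copper list had the same counts as over AAV control, 2 higher and 1 lower of 11. Of these lists, the iron list's 8 of 15 was above the share of all genes, and the haem, zinc and copper lists were below it.

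In input, 0 of 54 tested genes of the 4 lists passed in KA over AAV control with edgeR and 6 did at an unadjusted p under 0.05; the homogenate block gave 1 higher each in the iron, haem and copper lists and DESeq2 gave 1 in the copper list. Against PBS in input, 1 of 14 iron genes was higher, 1 of 17 haem genes was higher and 2 lower, 1 of 14 zinc genes went each way, and 3 of 11 copper genes were higher and 1 lower, where 27.7% of all genes tested passed.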

How the data were processed

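RNA was measured in 18 libraries (3 homogenates of each group, IP and input). The authors prepared libraries with the NEBNext Ultra II RNA kit, sequenced them on an Illumina NovaSeq instrument and aligned reads to mm10 with STAR; the submitters' processing notes also name featureCounts and edgeR. The annotation release, strand setting and handling of multiply mapped reads are not given in the sources used here. For each library the authors deposited raw read counts per gene and FPKM. Groups were taken from the submitters' labels and runs from the study's methods.

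Counts were tested with edgeR 4.0.16 in R 4.3.3 (TMM, quasi-likelihood, the compared libraries only, genes above 1 FPKM in every compared library, Benjamini-Hochberg over all genes tested). A member passed at an adjusted p under 0.05. The fit was tested on simulated data. Same-numbered KA and AAV control libraries deviated together, with residual correlations of 0.348 to 0.551 in IP and 0.352 to 0.550 in input, as did IP and input of the same homogenate (0.155 to 0.752), so the block with homogenate number was printed where it changed a call. KA and PBS numbers did not pair. No libraries were identical. All 10 members are named, with up to 3 genes per direction and pathway list by largest fold change among those that passed in KA over AAV control or PBS, IP; 1 gene that this rule would name is not reported here. Members and lists were chosen with earlier results of these data known. Alternatives were other scaling, DESeq2, limma-voom, other filters, added pseudogene counts, the block, 1 fit of all libraries, a run term, run 1 alone and leaving out each library; run 1 alone for the interaction, and leaving out both libraries of homogenate 3, were chosen after seeing the data.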

Additional observations from a re-analysis of the deposited data

Results flagged for a closer look

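A difference of the KA effect between IP and input, tested as IP minus input on the log2 scale with homogenate as a block, was found for 4 genes against AAV control: Mt1 (-1.01), Mt2 (-0.75), Mt3 (-0.70) and Ftl1 (-0.91). Against PBS it was found for Ftl1 (-0.85). In each the effect of KA was smaller in IP than in input, and none of them passed in the fit of all 12 libraries without the block. The signs rest in part on single libraries: in that fit, against AAV control, leaving out AAV control IP #3 moved Mt1 to 0.02 and Mt3 to 0.08, and leaving out KA input #3 moved Mt3 to 0.12. Groups of 3 libraries are too small for the test of single outlying libraries, so none was run.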

How the results depend on the processing

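Between 15 and 22 alternatives were computed for each comparison, and no value that passed in the fits of the tested design changed sign. Signs of values that had not passed there changed in 80 cases, among them Mt1 for KA over AAV control in IP, at -0.15 without KA IP #3. Counts of members past the threshold moved as follows. For KA over AAV control in IP, 1 member passed; the count was 2 with library totals, 3 with DESeq2, 6 without the FPKM filter, 4 with edgeR's count filter, 5 with the replicate block, 3 with all 18 libraries in 1 fit, 5 with run as a covariate, 5 from run 1 alone and 1 to 3 without single libraries. Over PBS in IP, 3 passed, 5 without the FPKM filter, 5 with edgeR's count filter and 2 to 4 without single libraries. In input, 3 passed over AAV control, 6 without the filter, 5 with the replicate block, 5 with run as a covariate, 6 from run 1 alone and 0 to 6 without single libraries; over PBS, 4 passed, and 3 to 4 without single libraries. For PBS over AAV control the count stayed 0 in IP without single libraries, with 1122 genes called without AAV control IP #3, and ranged from 0 to 4 in input. IP against input gave 3 to 6 in AAV control, 6 in PBS and 5 to 7 in KA without single libraries. The difference of the KA effect between IP and input gave 4 with the block and 5 from run 1 alone against AAV control, and 1 with the block and 0 to 3 without single libraries against PBS. The cause of these shifts was not tested, except that the filters set how many genes are tested.

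Genes past the threshold overall also moved by more than 1.5 times. From 1960, KA over AAV control in IP went to 3933 without the filter, 3027 with edgeR's count filter, 3356 with the block, 2968 in 1 fit, 3914 with run as a covariate and 4823 from run 1 alone. From 485, the same comparison in input went to 878 with DESeq2, 1770 without the filter, 1133 with edgeR's count filter, 1101 with the block, 1731 with the run term and 4781 from run 1 alone. Over PBS, 3647 in IP became 7028 and 6394 with the 2 other filters, and 3006 in input became 4929 without the filter and 1023 in 1 fit. PBS over AAV control, at 0 in both, had 261 genes in IP and 234 in input without the filter and 31 in IP in 1 fit. IP against input went from 3959 to 6322 without the filter, 6102 with the block and 6818 without homogenate 3 in AAV control, from 5853 to 8789 without the filter in PBS, and from 3477 to 5753 without the filter and 5336 with the block in KA. The difference of the KA effect went from 1210 to 3286 with the block and 3396 from run 1 alone, and against PBS from 2373 to 1508 with library totals. The pairing by homogenate changed no other member call than those printed with the results; KA and PBS, and PBS and AAV control, share only numbers; with the block there, 2 members passed in IP and 3 in input for KA over PBS. Depth limits Slc40a1, with 16 to 60 counts a library.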
